A study of Mus musculus with 2 samples.

Results

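The Ly6 family proteins of the ocular surface were followed here as 8 genes, taken by their symbols from the 27998 genes of each deposited matrix: Slurp1, Psca, Lypd2, Ly6g6c, Ly6a, Ly6e, Lypd3 and Ly6d. All 8 were found in both libraries. The study profiled single cells of the mouse cornea and limbus rim with droplet libraries (10x Genomics), which count one end of each captured transcript as a unique molecular identifier (UMI). One library came from a Beclin1 +/- female, which carries a single working copy of the autophagy gene encoding beclin 1, and the other from a wild-type (WT) female littermate. Both mice were C57BL/6, healthy and 28 days old. Lens, retina, iris and trabecular network had been removed and most conjunctiva cut away, so conjunctival cells are what the dissection left behind. The kind of Beclin1 allele is not given in the sources used here.

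Ly6 family proteins fold around a compact domain of disulfide-bonded loops, shared with snake toxins and with the urokinase receptor. Most are held on the outer face of the cell membrane by a glycosylphosphatidylinositol (GPI) lipid anchor, while a few, such as SLURP1, are secreted. In stratified epithelia they are known as markers of particular layers, as modulators of nicotinic acetylcholine receptors and as cell surface proteins that bind microbes or viruses. The corneal epithelium is renewed from limbal cells at its rim. Basal cells leave the basement membrane, become wing cells and are shed as flat surface cells.

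Cells were sorted into 5 classes by CPM, the UMIs of a gene scaled to the UMI total of the cell. Limbal cells had Gpha2 of at least 500 and Krt14 of at least 2000 CPM. Basal cells had Krt14 of at least 2000 and Krt12 of at least 8000 CPM, and wing cells Krt12 of at least 20000 with Krt14 below 2000 CPM. Surface cells had Lce3a of at least 1000 CPM, and conjunctival cells Krt4 of at least 2000 with Krt12 below 8000 CPM. The Beclin1 +/- library gave 366 limbal, 1446 basal, 970 wing, 117 surface and 95 conjunctival cells. The WT library gave 232, 810, 512, 53 and 56 of them. A cell that met more than 1 rule was placed once, in the order surface, limbal, conjunctival, basal, wing, and this concerned 122 Beclin1 +/- and 62 WT cells. Stromal cells (Dcn of at least 1000 CPM with low Krt14 and Krt12), 1349 Beclin1 +/- and 567 WT cells, served as the cell type in which epithelial transcripts should be free RNA. They held fewer UMIs, a median of 8195 and 11649 against 16772 and 30837 in conjunctival cells (Beclin1 +/- and WT). Equal CPM is therefore not an equal amount of free RNA per cell.

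The classes carried their markers, with exceptions. The summed level of 5 limbal markers was 7880 CPM in Beclin1 +/- and 8802 CPM in WT limbal cells, but it was 24589 and 20594 CPM in conjunctival cells, where Krt15 leads. Of 6 surface markers, Upk1b stood at 3403 and 4534 CPM and Muc4 at 1505 and 1601 CPM in surface cells (Beclin1 +/- and WT). Cldn4, at 236 and 193 CPM, was below its wing cell level of 1675 and 1487 CPM. The 6 summed to 23794 and 19142 CPM in surface cells, with Lce3a, the gene of the class rule, at 18240 and 12560 CPM. In conjunctival cells they summed to 6158 and 6626 CPM, with Lce3a at 34.4 and 58.2 CPM. Without Lce3a their sum therefore did not set surface cells apart from conjunctival cells. The 5 basal markers summed to 29962 and 31604 CPM in basal but 42438 and 43010 CPM in wing cells. Immune markers summed to at most 21.3 CPM in any class. The Beclin1 +/- library held 5155 barcodes at a median of 11571 UMIs, and the WT library 2513 barcodes at a median of 16967 UMIs. The libraries shared 15 barcodes. Becn1 transcripts did not separate the libraries, at 39.7 CPM in basal cells of both, 41.1 against 46.7 CPM in limbal cells and 46.8 against 46.4 CPM in wing cells (Beclin1 +/- first). A transcript end outside the altered part of the allele cannot check the genotype, so the libraries are called here as they are labelled.

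Of the 8 genes, 6 lie together on mouse chromosome 15, within 283 kb of the mm10 assembly, and their gene bodies were placed by Ensembl ID. Psca (ENSMUSG00000022598, chr15:74714839-74717069), Slurp1 (ENSMUSG00000022596, chr15:74724318-74728034), Lypd2 (ENSMUSG00000022595, chr15:74732247-74734329) and Ly6d (ENSMUSG00000034634, chr15:74762056-74763620) occupy 49 kb. Ly6e (ENSMUSG00000022587, chr15:74955051-74959905) and Ly6a (ENSMUSG00000075602, chr15:74994877-74998031) follow further along. Lypd3 (ENSMUSG00000057454, chr7:24636550-24641118) and Ly6g6c (ENSMUSG00000092586, chr17:35065388-35070050) lie elsewhere. All are protein coding. Slurp1, Lypd3 and Ly6g6c overlap a gene on the opposite strand (Them6, Gm26550 and the gene listed as G6b), and whether counting used strand is not given in the sources used here. Those partners were low, with Them6 at no more than 31.6 CPM and the other pair at no more than 1.04 CPM in any class. Of the 50-base stretches of the Ly6a transcripts, 19.0% also occur in Ly6c1, Ly6c2, Ly6i or I830127L07Rik, so Ly6a counts carry that uncertainty.

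RefSeq promoter entries were matched for 2 of the 8 members, Lypd3 and Ly6g6c, and both are shown to set the sequences beside the opposite courses that these genes took between basal and surface cells. Each runs from 250 bases before to 50 bases after the RefSeq start (GRCm38.p6, plus strand, chr7:24636320-24636619 and chr17:35067075-35067374). The Lypd3 window spans the start of the gene body given above, at 24636550. The Ly6g6c window lies inside its gene body, which starts at 35065388, so the windows are not alike in place. Capitals mark CACCC on either strand (read as GGGTG on the other), the core letters bound by Kruppel-like factors.
Lypd3: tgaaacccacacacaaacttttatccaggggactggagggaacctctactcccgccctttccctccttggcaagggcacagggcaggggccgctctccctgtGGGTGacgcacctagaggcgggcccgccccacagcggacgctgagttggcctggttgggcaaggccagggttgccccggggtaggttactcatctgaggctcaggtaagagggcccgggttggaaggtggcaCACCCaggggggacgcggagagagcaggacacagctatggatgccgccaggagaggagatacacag
Ly6g6c: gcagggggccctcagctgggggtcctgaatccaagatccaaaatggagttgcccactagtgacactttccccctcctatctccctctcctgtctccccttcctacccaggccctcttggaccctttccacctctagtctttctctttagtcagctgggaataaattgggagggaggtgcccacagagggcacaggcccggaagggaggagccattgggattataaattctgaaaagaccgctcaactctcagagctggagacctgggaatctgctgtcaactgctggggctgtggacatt
The Lypd3 window held 2 matches and the Ly6g6c window 0, where 57.5% of 32851 promoters of the same length held at least one. TGANTCA, the AP-1 letters, was in neither window and in 7.81% of all promoters. CANNTG, the E-box letters, occurred 1 time in the Lypd3 window and 3 times in the Ly6g6c window, and in 72.3% of all promoters. These matches describe letters and not bound sites.

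Surface over basal cells was the widest comparison across the layers. Of the 8 members 5 (Psca, Lypd2, Ly6g6c, Ly6a and Ly6e) were at least 2-fold higher in surface cells in both libraries, and 2 (Lypd3 and Ly6d) at least 2-fold lower. Across all 3396 features with a mean of at least 20 CPM, 16.3% were that much higher and 54.8% that much lower. The members' median log2 ratio was 2.59 in the Beclin1 +/- and 3.003 in the WT library, beside -1.37 and -1.37 over all features. Surface cells put much of their RNA into few genes. Scaling by TMM factors, which discounts such genes, moves the median of all features by 1.65 in both libraries, so ratios of surface cells are best read against that median. Each genotype has 1 library from 1 animal, so there is no test, and every interval given covers counting error only.

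**Figure D1:**
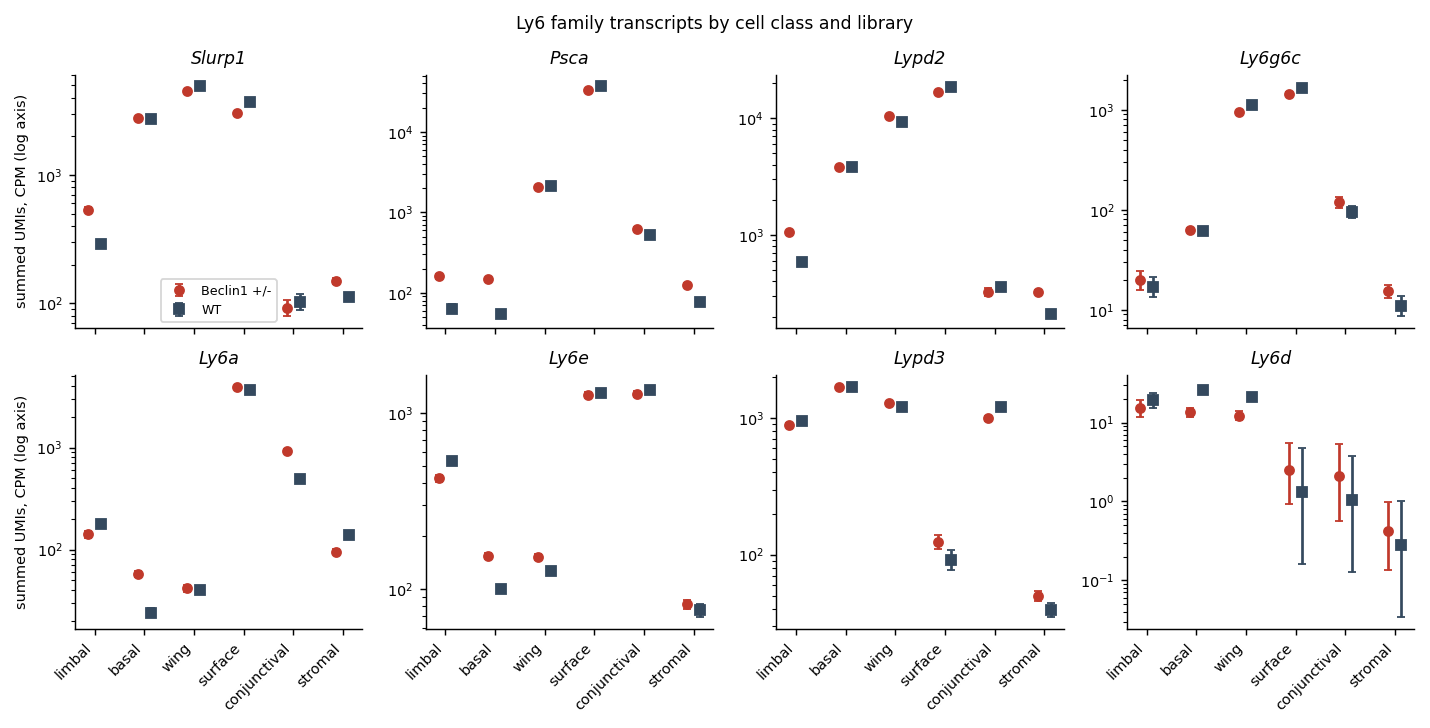
CPM of summed UMIs (vertical, log axis) of each Ly6 family gene in the 5 epithelial classes and in stromal cells (horizontal), with the Beclin1 +/- library as circles and the WT library as squares to its right. Bars are exact 95% Poisson intervals, and the panels show Psca highest in surface cells, Lypd3 lowest in surface and stromal cells, and Slurp1 and Lypd2 lowest in conjunctival and stromal cells.

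SLURP1, the secreted member, is known to act on nicotinic acetylcholine receptors, and loss of human SLURP1 causes the palmoplantar skin disease Mal de Meleda. Slurp1 was a transcript of the Krt12-high cornea. In the Beclin1 +/- library it stood at 536 CPM in limbal, 2799 in basal, 4509 in wing and 3032 in surface cells, and at 92.2 CPM in conjunctival cells. In the WT library the same classes held 289, 2745, 4885, 3686 and 103 CPM. Wing cells were the highest class in both libraries and conjunctival cells the lowest.

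On CPM the conjunctival level of Slurp1 was no higher than that of stromal cells, 149 CPM in the Beclin1 +/- and 112 CPM in the WT library. Conjunctival cells held more UMIs each, and whether this level is background was not tested. Limbal cells were 5.22-fold and 9.5-fold lower than basal cells (Beclin1 +/- and WT), and conjunctival cells 30.3-fold and 26.6-fold lower. Wing over basal was 1.61-fold and 1.78-fold. Surface over wing had a log2 ratio of -0.57 in the Beclin1 +/- and -0.41 in the WT library, and this direction turns to 0.89 and 1.14 under TMM scaling. Surface over basal was 0.12 and 0.43 on the log2 scale, under the 2-fold limit, and 1.55 and 1.85 under TMM scaling.

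Slurp1 was carried by nearly every corneal cell and by a minority of limbal cells. At least 500 CPM was reached by 98.0% of Beclin1 +/- and 98.8% of WT wing cells, and by 89.5% and 91.4% of basal cells. In limbal cells that share was 16.1% in the Beclin1 +/- and 8.62% in the WT library, and the 10% of limbal cells with most Slurp1 held 70.9% and 72.3% of its UMIs. Among limbal cells Slurp1 followed Krt12, the corneal keratin. Cells under 1000 CPM of Krt12 averaged 92.0 CPM of Slurp1 in the Beclin1 +/- and 62.6 CPM in the WT library, both below stromal cells, and those with at least 8000 CPM averaged 1163 and 1022 CPM.

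Psca (prostate stem cell antigen), a GPI-anchored protein of bladder and stomach lining, was the member most confined to the top of the epithelium. It reached 32787 CPM (exact 95% interval 32557 to 33017) in Beclin1 +/- surface cells and 36813 CPM (36509 to 37119) in WT surface cells. In wing cells it stood at 2046 and 2126 CPM, in basal cells at 147 and 54.3 CPM and in limbal cells at 161 and 63.5 CPM. Stromal cells held 125 CPM in the Beclin1 +/- and 76.0 CPM in the WT library. On CPM the limbal and basal values were at most 1.29-fold above that stromal level in the Beclin1 +/- library and below it in the WT library.

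Surface over wing cells was 16.0-fold in the Beclin1 +/- and 17.3-fold in the WT library, and wing over basal 13.9-fold and 39.1-fold. The basal value of the fold lies near the stromal level, so the step into wing cells is no measure of expression in basal cells. The share of cells with at least 1 Psca UMI does not separate classes by itself. It was 68.9% and 59.9% in limbal cells and 68.5% and 62.3% in basal cells, against 63.2% and 52.7% in stromal cells (Beclin1 +/- first in each pair). Within wing cells Psca was uneven. The median wing cell held 138 CPM in the Beclin1 +/- and 79.6 CPM in the WT library, while the 90th percentile stood at 7218 and 5761 CPM. The 10% of wing cells with most Psca carried 74.97% and 80.5% of its wing UMIs.

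Conjunctival Psca averaged 630 CPM in the Beclin1 +/- and 515 CPM in the WT library, 5.03-fold and 6.78-fold above stromal cells. Few conjunctival cells made up that level. The median cell held 74.6 and 60.3 CPM, 12 of 95 and 8 of 56 cells reached 500 CPM, and the top 10% carried 87.5% and 84.2% of the UMIs.

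Lypd2, a predicted GPI-anchored member whose function is little described, was the most counted of the 8, with 410633 UMIs in the Beclin1 +/- and 292205 in the WT library over all cells. Its class levels ran 1054, 3809, 10522 and 16766 CPM from limbal through basal and wing to surface cells in the Beclin1 +/- library. In the WT library they ran 589, 3794, 9354 and 18695 CPM. Each layer was higher than the one before it in both libraries. Wing over basal was 2.76-fold and 2.47-fold, and surface over wing 1.59-fold and 2.00-fold (Beclin1 +/- and WT). Conjunctival cells held 325 and 358 CPM against 328 and 211 CPM in stromal cells. On CPM the conjunctival signal was level with stromal cells in the Beclin1 +/- library and 1.69-fold above them in the WT library. The conjunctival cells were the deeper ones, and the part of free RNA in their signal was not tested. At least 500 CPM was found in 98.5% and 99.4% of basal cells and in 43.2% and 28.4% of limbal cells.

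Ly6g6c, a GPI-anchored member encoded in the major histocompatibility complex, was nearly absent from the basal side. It stood at 19.7 and 17.1 CPM in limbal and 62.7 and 61.0 CPM in basal cells of the Beclin1 +/- and WT libraries. Wing cells held 948 and 1102 CPM and surface cells 1442 and 1657 CPM. Stromal cells gave 15.4 and 10.9 CPM. Wing over basal was 15.1-fold and 18.0-fold, and surface over wing 1.52-fold and 1.504-fold, so most of its difference lay between basal and wing cells. Conjunctival cells held 119 and 95.4 CPM, 7.73-fold and 8.74-fold above stromal cells.

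Psca and Ly6g6c were nested within wing cells. Of the 264 Beclin1 +/- and 118 WT wing cells with at least 500 CPM of Psca, 88.6% and 95.8% also had at least 500 CPM of Ly6g6c. Seen from Ly6g6c, 49.4% of its 474 and 43.8% of its 258 such wing cells were also high in Psca. Across wing cells the Spearman rho of Lypd2 with Ly6g6c was 0.65 and 0.68 and of Psca with Ly6g6c 0.48 and 0.53 (970 Beclin1 +/- and 512 WT cells), which describes cells of 1 library that share depth and free RNA.

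**Figure D2:**
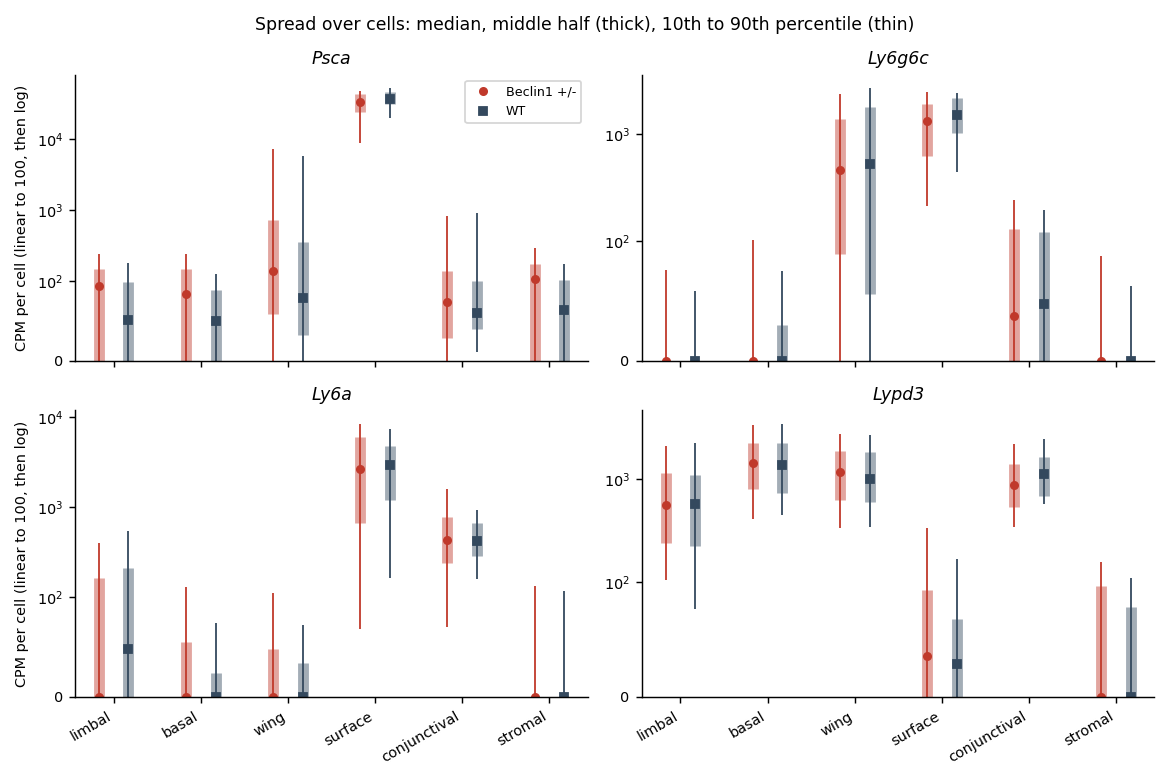
CPM per cell (vertical, linear up to 100 and log above) of Psca, Ly6g6c, Ly6a and Lypd3 in each class (horizontal), with Beclin1 +/- cells in red left of WT cells in dark blue. Points are medians, thick bars the 25th to 75th percentile and thin bars the 10th to 90th percentile, and wing cells show a low median of Psca, 138 and 79.6 CPM, below a long upper tail.

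Cells were also ordered by Krt14 in place of its single limit, keeping the Krt12 limit of wing cells and leaving out the surface class. Among cells of at least 20000 CPM of Krt12 and under 1000 CPM of Lce3a, those with least Krt14 (under 250 CPM) were set against those with most (at least 4000 CPM). Psca averaged 4014 against 118 CPM in the Beclin1 +/- and 5637 against 54.3 CPM in the WT library. Ly6g6c averaged 1461 against 57.9 CPM and 1969 against 52.7 CPM, and was higher in each bin of lower Krt14 in both libraries. Lypd2 averaged 13440 against 4137 CPM and 13362 against 4190 CPM, with the same order of bins. Slurp1 differed less, 4768 against 3303 CPM and 5544 against 3348 CPM. Lypd3 ran the other way, 1211 against 1916 CPM in the Beclin1 +/- and 1157 against 1824 CPM in the WT library. Ly6a and Ly6e showed no such course, with Ly6e between 125 and 161 CPM in the Beclin1 +/- and between 79.6 and 148 CPM in the WT library.

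The second ordering followed Lce3a, a late envelope gene, among cells of low Krt14 and at least 8000 CPM of Krt12. From cells under 50 CPM of Lce3a to those of at least 5000 CPM, Psca was 2778, 6597, 18454, 27825 and 32646 CPM in the Beclin1 +/- library. In the WT library it was 2253, 6934, 14862, 33254 and 40058 CPM. Ly6a ran 94.2, 214, 1140, 1571 and 3631 CPM in Beclin1 +/- cells, and 69.6, 274, 726, 1274 and 4177 CPM in WT cells. Among these Krt12-bearing cells Ly6a was therefore highest where Lce3a was highest, while Psca and Ly6g6c were already higher in cells of low Krt14 without much Lce3a. Ly6e ran 198, 242, 446, 542 and 1152 CPM in Beclin1 +/- cells, and 162, 268, 408, 482 and 1506 CPM in WT cells. Lypd3 was lower in each further bin, 1263, 1136, 829, 371 and 70.7 CPM in Beclin1 +/- cells and 1176, 1045, 763, 151 and 74.3 CPM in WT cells. The WT bins from 200 to 1000 and from 1000 to 5000 CPM of Lce3a hold 14 and 15 cells, so the order of the middle WT bins rests on few cells.

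**Figure D3:**
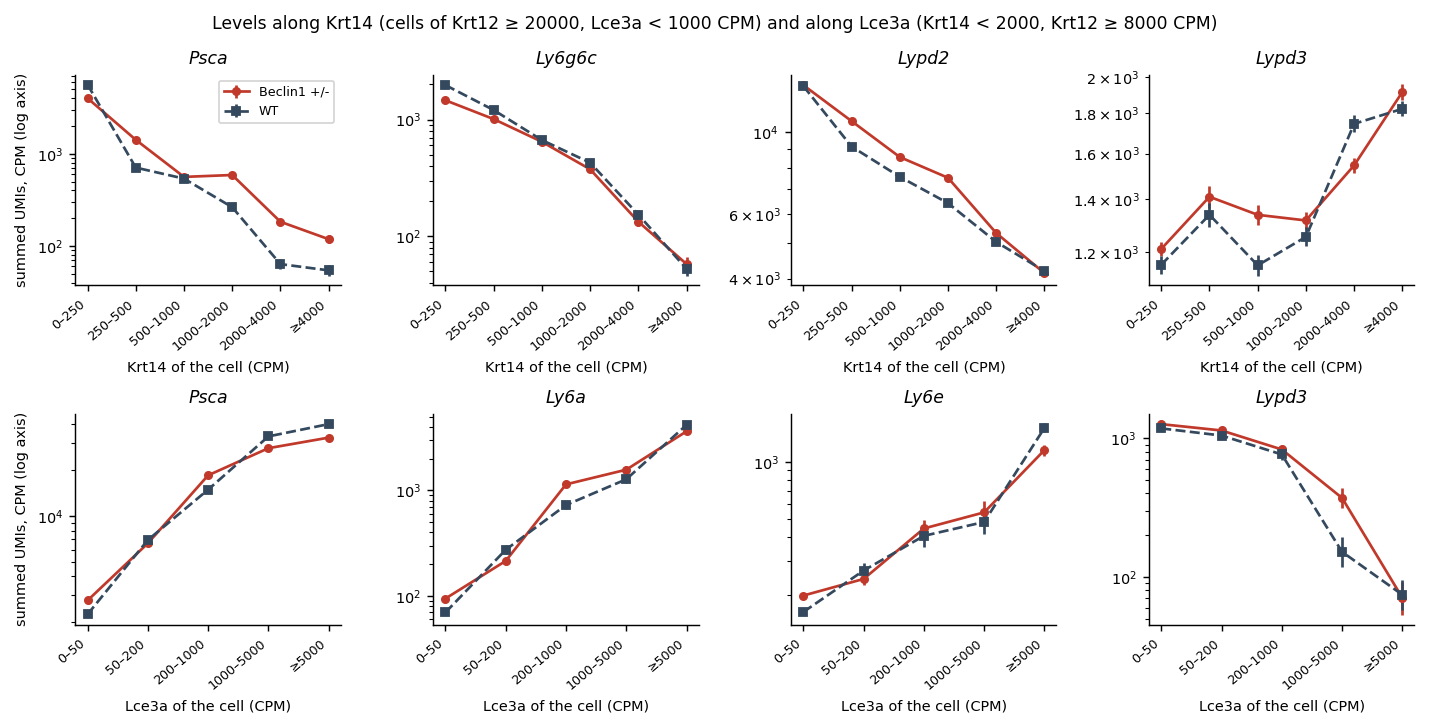
Members' CPM (vertical, log axis) in bins of single-cell Krt14 among Krt12-high cells (upper row) and of Lce3a among Krt14-low cells (lower row), low to high from left to right. Solid red lines are the Beclin1 +/- and dashed dark lines the WT library, bars are exact 95% Poisson intervals, and Lypd3 runs against Psca in both orderings.

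Ly6a (Sca-1, a marker of mouse blood stem cells) and Ly6e, both known as interferon-inducible GPI-anchored proteins, shared a pattern with a low middle. Ly6a stood at 141 CPM in limbal, 57.6 in basal, 41.6 in wing and 3889 in surface cells of the Beclin1 +/- library, and at 178, 24.1, 39.8 and 3689 CPM in the WT library. Conjunctival cells held 934 CPM in the Beclin1 +/- and 492 CPM in the WT library. Surface over wing was 93.5-fold and 92.5-fold. Basal and wing levels lay below those of stromal cells, 95.05 and 138 CPM. Stromal Ly6a was not an even background, since the top 10% of stromal cells held 90.8% and 96.7% of its UMIs.

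Ly6e, which in mouse and human restrains coronavirus entry, stood at 424 CPM in limbal, 154 in basal, 152 in wing and 1260 in surface cells of the Beclin1 +/- library. The WT library held 535, 99.6, 126 and 1300 CPM. Conjunctival cells were near surface cells, at 1270 and 1353 CPM, and surface over conjunctival had a log2 ratio of -0.01 (interval -0.09 to 0.07) in the Beclin1 +/- and -0.06 (-0.14 to 0.03) in the WT library. Under TMM scaling surface cells were higher instead, at 1.36 and 1.35. Ly6e was found in every conjunctival cell of both libraries, also after thinning each cell to 5000 UMIs. In surface cells the Spearman rho of Ly6e with Ly6a, on thinned counts, was 0.63 over 117 Beclin1 +/- and 0.75 over 53 WT cells. That of Ly6a with Krt12 was -0.41 and -0.61.

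Limbal over basal cells separated these genes from the rest. Ly6a and Ly6e were at least 2-fold higher in limbal cells in both libraries, 2.44-fold and 7.38-fold for Ly6a and 2.76-fold and 5.37-fold for Ly6e (Beclin1 +/- and WT), while Slurp1, Lypd2 and Ly6g6c were at least 2-fold lower. Over 4094 features 3.27% were that much higher and 1.71% that much lower. The members' median was -0.39 and -0.62 on the log2 scale, beside 0.01 and 0.01 over all features. Ly6g6c in limbal cells was within 1.57-fold of its stromal level, and was not told apart from free RNA there. Limbal Ly6a was 1.48-fold and 1.29-fold above its uneven stromal level, and basal Ly6a 1.65-fold and 5.73-fold below it. Ly6a loses the 2-fold call in the Beclin1 +/- library when cells meeting several rules are counted in each, at 0.92, when called doublets are kept, also at 0.92, and when class limits are doubled, at 0.9989.

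Within limbal cells Ly6a and Ly6e lay opposite to Krt12, and conjunctival keratins moved with them. Limbal cells under 1000 CPM of Krt12 held 871 CPM of Ly6e in the Beclin1 +/- and 925 CPM in the WT library, against 284 and 155 CPM in those of at least 8000 CPM. For Ly6a the values were 295 and 372 CPM against 110 and 20.0 CPM. In the same cells Krt4 stood at 861 and 786 CPM against 41.0 and 29.3 CPM, and Krt19 at 344 and 454 CPM against 13.5 and 9.33 CPM. With limbal and basal cells of at least 200 CPM of Krt4, Krt13 or Krt19 left out, an alternative chosen after seeing the data, limbal over basal was still 1.33 and 1.94 on the log2 scale for Ly6e and 1.26 and 2.02 for Ly6a. Ly6g6c then lost its 2-fold call, at -0.95 in the Beclin1 +/- and -1.69 in the WT library. Along Gpha2 among Krt14-high cells, Ly6e was 460 and 627 CPM in cells of 500 to 2000 CPM of Gpha2, higher than in cells above that range, 354 and 377 CPM.

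Lypd3 (C4.4a), a GPI-anchored relative of the urokinase receptor known from stratified epithelia, was high in every epithelial class but surface cells. It stood at 895 CPM in limbal, 1680 in basal, 1294 in wing and 124 in surface cells of the Beclin1 +/- library, and at 957, 1683, 1211 and 92.0 CPM in the WT library. Conjunctival cells held 998 and 1204 CPM. Surface cells were therefore 13.5-fold and 18.2-fold lower than basal cells, with stromal cells at 49.7 and 39.4 CPM. That difference was a log2 ratio of -3.75 and -4.19 beside a median of -1.37 over all features, and it stayed past 2-fold under TMM scaling at -2.32 and -2.76. The share of cells with at least 500 CPM was 86.6% and 87.9% in basal, 81.9% and 80.7% in wing and 8.55% and 5.66% in surface cells. Limbal over basal was -0.91 and -0.81 on the log2 scale, just inside the 2-fold limit. Lypd3 was lowest in the cells richest in Gpha2, at 515 and 601 CPM, against 1726 and 1712 CPM in Krt14-high cells with least Gpha2.

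Ly6d, a GPI-anchored protein known from lymphoid progenitors and keratinocytes, was scarce, with 658 UMIs in the Beclin1 +/- and 914 in the WT library. It stood at 15.1 and 19.2 CPM in limbal, 13.4 and 25.97 in basal and 12.3 and 21.3 in wing cells. Surface cells held 2.51 and 1.31 CPM, from 6 and 2 UMIs, and conjunctival cells 2.08 and 1.05 CPM, from 4 and 2 UMIs. Stromal cells gave 0.419 and 0.283 CPM, from 5 and 2 UMIs. Wing over stromal was 26.7-fold and 60.4-fold, with wide log2 intervals of 3.63 to 6.51 and 4.37 to 9.29. At least 1 UMI was seen in 8.64% of Beclin1 +/- and 15.4% of WT basal cells, and after thinning in 3.87% and 5.31%. Ly6d was the member that did not reach a mean of 20 CPM in the comparisons between classes, and it did not reach it between genotypes in any class. Its surface over basal log2 ratio of -2.30 in the Beclin1 +/- library is -0.87 under TMM scaling.

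Between wing and basal cells 3 members (Psca, Lypd2 and Ly6g6c) were at least 2-fold higher and 0 lower, beside 7.53% of 4103 features higher and 4.41% lower. Conjunctival over basal cells gave 3 higher (Psca, Ly6a and Ly6e) and 3 lower (Slurp1, Lypd2 and Ly6d), beside 12.4% and 9.7% of 4001 features. Surface over conjunctival cells gave 5 higher (Slurp1, Psca, Lypd2, Ly6g6c and Ly6a) and 1 lower (Lypd3), beside 10.8% and 50% of 3223 features. Ly6a and Ly6e were high on both the corneal surface and the conjunctiva. Psca was too on average, at 630 and 515 CPM in conjunctival cells, but few of those cells made up that level. Slurp1 and Lypd2 were high in the cornea and within 1.69-fold of stromal cells in the conjunctiva. Lypd3 was high in conjunctival and low in corneal surface cells.

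The comparison of genotypes asked whether loss of 1 Beclin1 copy moves these genes within a class. At least 1.5-fold was the limit. In surface cells every member but Ly6d stayed under it. Psca was at -0.17 (interval -0.18 to -0.15), Lypd2 at -0.16 (-0.18 to -0.14), Ly6a at 0.08 (0.03 to 0.12) and Ly6e at -0.05 (-0.13 to 0.04), all log2 of Beclin1 +/- over WT. Slurp1 was at -0.28 (-0.33 to -0.23), Ly6g6c at -0.20 (-0.28 to -0.13) and Lypd3 at 0.43 (0.14 to 0.74). Of the 8 members 1 passed the limit there, Ly6d at 0.73 (-1.55 to 4.28), on 6 and 2 UMIs, beside 5.9% of 2339 features higher and 6.88% lower. In wing cells 1 of 8 members passed, beside 0.7% of 4288 features higher and 1.19% lower. This was Ly6d, at 12.3 CPM in the Beclin1 +/- against 21.3 CPM in the WT library, a log2 ratio of -0.80 (-1.05 to -0.55). Thinned to equal depth, that ratio was -0.25. In both classes Ly6d lay under the mean of 20 CPM that chose these features, and none of the 7 other members passed. At a mean of at least 5 CPM, 0.916% of 7864 features were higher in wing cells and 4.02% lower.

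In limbal cells 3 members were higher in the library labelled Beclin1 +/-, and 0 lower, beside 0.919% of 4244 features higher and 1.37% lower. Slurp1 stood at 536 against 289 CPM (log2 ratio 0.89), Lypd2 at 1054 against 589 CPM (0.84) and Psca at 161 against 63.5 CPM (1.34). Krt12 was likewise higher, 6186 against 4449 CPM (0.48). The same transcripts were higher in Beclin1 +/- stromal cells, Slurp1 by 0.41, Lypd2 by 0.64, Psca by 0.72 and Krt12 by 0.59 on the log2 scale. When class limits were halved the limbal ratios of Slurp1, Lypd2 and Psca were 0.25, 0.13 and 0.04. With cells meeting more than 1 rule left out, Lypd2 was 0.51 and Psca 0.56, both under the limit, and Slurp1 0.70. The part of free RNA and of Krt12-bearing limbal cells in these differences was not tested.

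In basal cells 4 members passed, 3 higher and 1 lower, beside 1.06% of 4148 features higher and 0.386% lower. Psca stood at 147 against 54.3 CPM (log2 1.44, interval 1.33 to 1.55), Ly6a at 57.6 against 24.1 CPM (1.26, 1.09 to 1.42) and Ly6e at 154 against 99.6 CPM (0.63, 0.54 to 0.71) in Beclin1 +/- against WT cells. Ly6d was the reverse, 13.4 against 25.97 CPM (-0.95, -1.18 to -0.73), and here too its mean was under 20 CPM. The higher values came with a few very high cells. At least 500 CPM was found in 31 of 1446 Beclin1 +/- against 1 of 810 WT basal cells for Psca, in 26 against 1 for Ly6a and in 80 against 10 for Ly6e. The median basal cell held 83.6 against 50.3 CPM of Psca, 84.6 against 61.2 CPM of Ly6e and 0 CPM of Ly6a in both libraries. Such low values depend on depth, a median of 12039 against 17754 UMIs, so these medians cannot tell whether the typical cell differed. After thinning to equal depth, Psca was found in 36.2% against 24.6% of basal cells, Ly6e in 39.6% against 35.4% and Ly6a in 14.7% against 9.51%. Mast cell markers summed to 11.8 CPM in Beclin1 +/- basal cells and 0 in WT basal cells, the 3 conjunctival markers to 177 against 131 CPM, and the 5 stromal markers to 431 against 360 CPM. Their part in the result was not tested. Without cells of at least 200 CPM of Dcn or mast cell proteases, Ly6a was still 1.28, Ly6e 0.67 and Psca 1.36. Ly6e did not pass once cells were thinned to equal depth, at 0.37. Psca was 0.58, just under the limit, when cells meeting several rules were counted in each, and Ly6d was -0.45 when cells with Krt4, Krt13 or Krt19 were left out as above. Stromal Psca, at 125 against 76.0 CPM, differed in the same direction as basal Psca.

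In conjunctival cells Ly6a averaged 934 CPM in the Beclin1 +/- against 492 CPM in the WT library (log2 0.92, interval 0.81 to 1.04), beside 3.23% of 4027 features higher and 7.15% lower. The median cell did not show it, at 430 against 417 CPM. The top 10% of cells held 55.3% of Ly6a UMIs in the Beclin1 +/- and 27.7% in the WT library, and with class limits halved the ratio turned to -0.23. Ly6d also passed, at 0.84 (-1.81 to 4.46), on 4 against 2 UMIs. Genotype, animal and library cannot be told apart in any of these values.

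**Figure D4:**
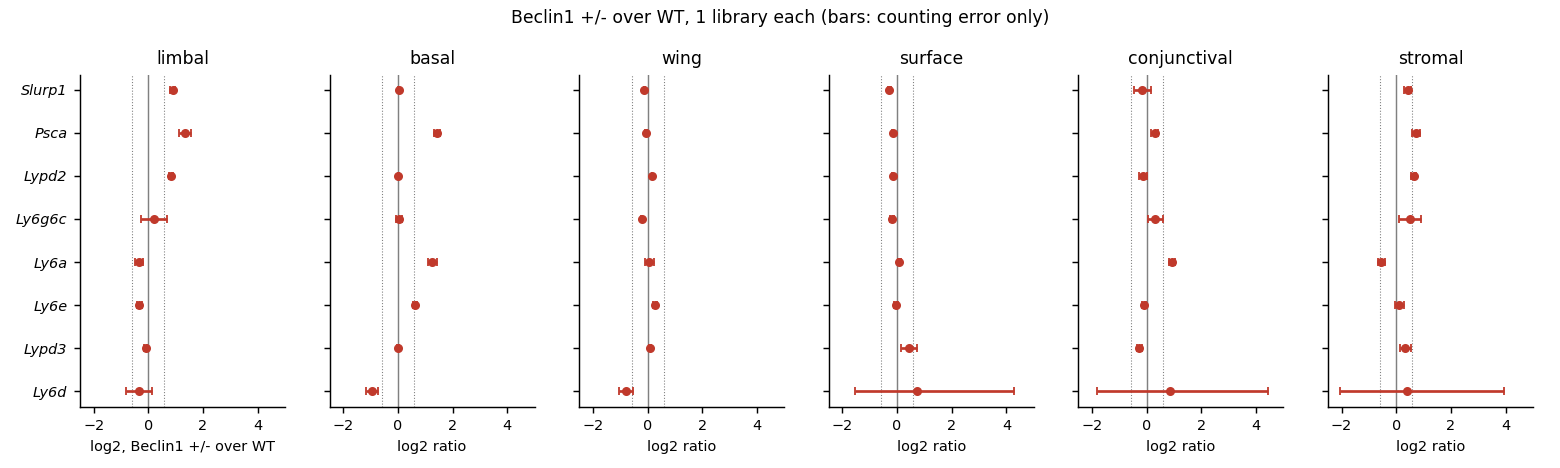
Log2 ratio of Beclin1 +/- over WT (horizontal) for each member (vertical) in the 5 epithelial classes and in stromal cells, with exact 95% intervals for counting error. Dotted lines mark 1.5-fold, and the surface panel has the points of every member but Ly6d within them, Ly6d resting on 6 and 2 UMIs.

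Other family genes were mostly at low levels in this epithelium. Of 30 further Ly6 and uPAR family genes, 28 were analysed and 4 reached 20 CPM in an epithelial class of both libraries. Lynx1, a GPI-anchored brake on nicotinic receptors, stood at 116 CPM in Beclin1 +/- and 141 CPM in WT surface cells, against 35.2 and 38.9 CPM in basal cells. Lypd8, known to bind flagellated bacteria in the mouse colon, stood at 25.1 and 23.7 CPM in surface against 1.70 and 1.41 CPM in basal cells. Plaur, the urokinase receptor, was at 13.8 and 15.1 CPM in surface against 108 and 130 CPM in basal cells. Ly6g6e was at 22.2 and 11.2 CPM in surface against 7.98 and 5.96 CPM in basal cells and highest in conjunctival cells, at 89.6 and 97.5 CPM. By the 2-fold rule 2 of the 4 were higher in surface cells (Lynx1, Lypd8) and 1 lower (Plaur), beside 16.3% of all features higher and 54.8% lower, a share taken over features chosen by their mean in surface and basal cells rather than by any 1 class. Under TMM scaling Ly6g6e was called higher as well, which made 3 higher and 1 lower.

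Genes of GPI anchor synthesis and attachment differed between surface and basal cells about as features in general did. Of 29 listed genes 28 were analysed, 12 reached 20 CPM, and of these 8 were at least 2-fold lower and 2 higher in surface than in basal cells, beside 54.8% and 16.3% of all features. Those shares cover features chosen by their mean in surface and basal cells, while the 12 were chosen by any 1 class. Pigf, among the 8, did not reach that mean of 20 CPM. The list's median log2 ratio was -1.53 in the Beclin1 +/- and -1.13 in the WT library, near the -1.37 of all features. Under TMM scaling 1 of the 12 (Pigf) was called lower and 2 (Pigu and Piga) higher, so the other lower calls depend on the scaling. Pigf, of ethanolamine phosphate transfer, stood at 1.68 and 0.657 CPM in surface against 25.8 and 27.7 CPM in basal cells. Gpaa1, Pigt and Pigu belong to the transamidase that joins anchor and protein, and they did not move together. Gpaa1 was at 5.03 and 6.57 CPM in surface against 35.7 and 37.0 CPM in basal cells, and Pigt at 20.1 and 19.7 against 70.9 and 78.6 CPM. Pigu was instead at 35.6 and 63.1 CPM in surface against 8.22 and 7.12 CPM in basal cells. Pigp, of the first step of anchor synthesis, had log2 ratios of -2.17 and -1.99, and Dpm1, a dolichol phosphate mannose synthase, -1.99 and -1.68. The second gene that was higher was Piga, named after its values were seen, at 49.5 and 40.1 CPM in surface against 23.7 and 18.9 CPM in basal cells.

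Known partners of the family were thinly represented. None of the listed nicotinic receptor subunits passed 3.10 CPM in any epithelial class, and 5 of 20 listed partners reached 20 CPM. The integrin subunit Itgav was higher in surface cells, 96.4 and 99.2 against 43.1 and 42.5 CPM in basal cells. Itgb1 was lower, 10.1 and 5.26 against 138 and 156 CPM, and Itga5 was at 0 in surface cells of both libraries against 7.98 and 3.93 CPM. Serpinb2, an inhibitor of urokinase, was at 19.7 and 2.63 against 46.1 and 12.6 CPM and highest in conjunctival cells, at 472 and 580 CPM. Under TMM scaling its surface over basal log2 ratio turned to 0.22 in the Beclin1 +/- library and was -0.67 in the WT library.

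Genes with the most similar course over the 10 class values (5 classes in 2 libraries) were ranked by Pearson r of log2(CPM + 10) among 4078 genes, as a description. Lynx1, a family gene on the same stretch of chromosome 15, was first for Lypd2 (r = 0.99), ahead of Bnip3l (0.99) and Pak1 (0.96). Slurp1 was nearest to Lipe (0.98), Bnip3l (0.97) and E130218I03Rik (0.96). Psca had Cysrt1, Gm44275 and Gm2a (all 0.99), and Cysrt1 stood at 4962 and 4595 CPM in surface against 44.9 and 18.3 CPM in basal cells. Ly6g6c had Xlr4c (0.99), Ttc36 (0.98) and Rhoa (0.97). Ly6e was nearest to Krt7 (0.99), a simple epithelial keratin at 864 and 952 CPM in surface and 543 and 546 CPM in conjunctival cells, followed by Slc16a11 (0.96) and Fgd6 (0.95). Ly6a had Il1f9 (0.99), Krt23 (0.98) and Nt5e (0.98). Lypd3 had Twf1, Bag1 and Tbca (all 0.99), and Ly6d Gm20383 (0.97) and Dkk3 (0.96). Among the members themselves Slurp1 with Lypd2 (0.95), Ly6a with Ly6e (0.92) and Psca with Ly6g6c (0.91) were closest, and Ly6d with Ly6e (-0.88) most opposed.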

How the data were processed

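The matrices hold UMI counts per gene and cell barcode, deposited by the authors after Cell Ranger 2.1.1 on mm10, per the submitters' processing notes. Counts were used as deposited, with 74363359 UMIs in the Beclin1 +/- and 54913980 in the WT library, and at least 5430 and 8089 UMIs per barcode. The barcodes with the highest Scrublet scores (scanpy 1.11.5) were removed as doublets, at a rate of 0.8% for each 1000 barcodes of the library, 213 Beclin1 +/- and 51 WT barcodes, which left 4942 and 2462 cells. UMIs were summed over the cells of a class in a library and divided by the class total (CPM). Ratios add 0.5 to each count. Intervals are exact 95% ones (scipy 1.17.1) and cover counting error only. With 1 library per genotype no test was made. A member was called at 2-fold in the same direction in both libraries between classes, and at 1.5-fold between genotypes. Shares of features called used those with a mean of at least 20 CPM. TMM factors came from edgeR 4.0.16. The ratio step was tested on simulated data. Gene positions are from GENCODE vM21 (27645 of 27998 features matched). Members and gene lists were chosen with earlier results of these data known. All members are named, other family genes at 20 CPM in both libraries, GPI and partner genes that also differ 2-fold (at most 6 by size), and 3 genes by likeness per member. Ly6l, Slurp2 and Pigy were not analysed here. One gene that the partner rule names and one that the likeness rule names are not reported here.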

Additional observations from a re-analysis of the deposited data

How the results depend on the processing

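No paired analysis was possible because each genotype has 1 library from 1 animal, so neither a replicate block nor leaving out a replicate gives a value. Of 96 ratios between classes 64 were called, 60 of them under all 11 alternatives, and all 64 kept their sign. Of 40 ratios between genotypes 11 were called, 1 of them (Ly6a in basal cells) under all 11 alternatives, and 8 kept their sign. The number of members past 1.5-fold between Beclin1 +/- and WT moved in all 5 classes. In basal cells it was 4, and 3 or 4 under the alternatives. In surface cells it was 1, but 2 without doublet removal and 0 with cells of several classes left out, with class limits doubled or halved, or with members under 20 CPM left out. In conjunctival cells it was 2, but 1 with the mean of per-cell CPM or without members under 20 CPM, and 3 with limits doubled or halved or when thinned. In wing cells it was 1, but 0 with cells thinned to 5000 UMIs or without members under 20 CPM, and in limbal cells it was 3, but 1 with class limits halved, 2 with limits doubled or with cells of several classes left out, and 4 without cells high in Krt4, Krt13 or Krt19. Ly6d in surface cells turned to -0.30 with cells of several classes left out and to -0.33 with limits doubled, and in conjunctival cells it was -0.76 when thinned, a value with no meaning since thinning left 0 Ly6d UMIs in both libraries and the ratio is that of the totals, which also adds 1 to that count of 3. Ly6a in conjunctival cells turned to -0.23 with limits halved. The cause was not tested. Depth limits Ly6d most, with 6 UMIs or fewer in surface and in conjunctival cells of either library.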

Other observations

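Stromal cells held the family in another form. Of the 28 other family genes Cd59a, an inhibitor of complement, and Ly6c1, a marker of endothelium and monocytes, were the ones above 20 CPM in stromal cells of both libraries. Ly6c1 stood at 21.9 CPM in Beclin1 +/- and 39.6 CPM in WT stromal cells, against 3.36 and 2.58 CPM in basal cells. Ly6a of at least 500 CPM was found in 57 of 1349 Beclin1 +/- and 42 of 567 WT stromal cells, while the median stromal cell held 0 CPM in both libraries. Cells in no class, 599 Beclin1 +/- and 232 WT cells, averaged 8898 and 6201 CPM of Psca and 1069 and 959 CPM of Ly6a. These averages lay between those of wing and surface cells but came from unlike cells. The median cell held 196 and 91.8 CPM of Psca, and the 90th percentile 32567 and 34500 CPM. At least 500 CPM of Psca was found in 237 and 78 of them, against 113 and 53 surface cells. The Lce3a rule therefore did not hold all cells of high Psca.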
